A study of Homo sapiens with 22 samples.

Results

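The genes described here build cholesterol and fatty acids. They were chosen by symbol as 41 of the 26485 gene symbols in each count table. No measured value enters that rule, but the members were chosen with earlier results of these data known. The sterol branch holds 23 of them, 17 enzymes from acetoacetyl-CoA to cholesterol and 6 genes of sterol sensing and carriage. The fatty acid branch holds the other 18, from acetyl-CoA supply through synthesis, desaturation and elongation to activation of the finished acids. All 41 passed the filter on low counts in every fit.

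RNA sequencing was analysed in 22 libraries, all labelled MDA-MB231 with genotype WT. This is a much used human cell line grown from a triple-negative breast cancer. The study concerns HDAC6, a mainly cytoplasmic deacetylase that acts on tubulin and other proteins. Nexturastat A, an HDAC6 inhibitor, was given at 7.65 µM for 2 days (n = 2) and is set against Ctrl (n = 2, treatment given as DMSO, also taken at day 2). Hairpins shHDAC6-1 (n = 3) and shHDAC6-2 (n = 3) are set against a control hairpin, shCtrl (n = 3), all taken at day 0. HPOB (n = 3) and Tubastatin A (n = 3), HDAC6 inhibitors too, are set against DMSO (n = 3), all taken at day 2. No dose of HPOB or Tubastatin A is stated in the labels, and the titles of the Tubastatin A libraries carry the letters TSA. Nothing in the labels says whether replicates came from separate cultures, so p-values measure the spread between these libraries, which may be technical. Each library held 31.2 to 85.9 M counts, and the 41 genes together took 0.344% to 0.945% of them.

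Cells make cholesterol through the mevalonate pathway and make fatty acids from cytosolic acetyl-CoA. Both branches are switched on by sterol regulatory element binding proteins (SREBPs), encoded by SREBF1 and SREBF2. These are held in the endoplasmic reticulum with their escort SCAP by the INSIG proteins when sterols are plentiful, and are carried to the Golgi and cut free by proteases when sterols run low. SREBP-2 acts mainly on the sterol genes and SREBP-1 mainly on the fatty acid genes, both together with NF-Y and Sp1 at promoters, and INSIG1 is itself one of their targets. Tumour cells often run both branches strongly to build membranes.

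The libraries do not all look like 1 cell population, which touches every comparison across experiments. CDKN2A, a gene deleted in MDA-MB231, stood at 132 to 175 CPM (the usual depth-scaled count, with edgeR's TMM scaling) in the 6 knockdown libraries of replicates 1 and 2, shCtrl included. It stood at 8.84 CPM in shHDAC6-1 replicate 3 and 29.1 CPM in shHDAC6-2 replicate 3, and at 0 in shCtrl replicate 3. The summed level of 3 embryonic-like markers (IRS4, IGF2BP1 and LIN28B) ran from 649 to 1155 CPM there, stood at 22.2 and 65.8 CPM in the hairpin libraries of replicate 3, and was under 1 CPM in all others. CD44, a mesenchymal marker of MDA-MB231, was at 18.9 to 21.9 CPM in the 6 libraries, while Ctrl held 328 to 332 CPM. The 6 mesenchymal markers together summed to 1026 to 1130 CPM in the 6 libraries and to 5480 CPM in shCtrl replicate 3. Replicates 1 and 2 of the knockdown were therefore fitted apart from replicate 3, and comparisons rest on differences within an experiment. HDAC6 mRNA was 12.8, 11.99 CPM with shHDAC6-1 and 12.4, 14.0 CPM with shHDAC6-2, against 45.6, 52.9 CPM with shCtrl in replicates 1 and 2. Its log2 fold changes were -1.99 and -1.90, and its fold change with Nexturastat A was -0.19 on the log2 scale (adjusted p = 0.328).

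Promoters of 5 genes are printed. Of these, 4 are among the 8 genes that moved in opposite directions under Nexturastat A and the hairpins. The fifth, SREBF2, holds the sterol element in the form searched. The other genes of the 8 are not printed, nor are further windows of HMGCS1 and IDI1. Each run is 300 bases, 250 before and 50 after the start of transcription, 5′ to 3′ on the gene's strand, from RefSeq on GRCh38.p14. The windows are chr5:43313363-43313662 on the minus strand for HMGCS1, chr10:1049070-1049369 on the minus strand for IDI1, chr7:155297628-155297927 on the plus strand for INSIG1, chr10:100346983-100347282 on the plus strand for SCD and chr22:41832855-41833154 on the plus strand for SREBF2. Capitals mark the NF-Y box (CCAAT, or ATTGG on the other strand) and the sterol regulatory element TCACNCCAC.
HMGCS1: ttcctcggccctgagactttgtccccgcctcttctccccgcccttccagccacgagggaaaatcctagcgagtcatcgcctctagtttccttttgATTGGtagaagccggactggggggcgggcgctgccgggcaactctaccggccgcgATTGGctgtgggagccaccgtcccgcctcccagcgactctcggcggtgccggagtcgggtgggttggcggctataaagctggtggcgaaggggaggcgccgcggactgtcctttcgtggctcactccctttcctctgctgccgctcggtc
IDI1: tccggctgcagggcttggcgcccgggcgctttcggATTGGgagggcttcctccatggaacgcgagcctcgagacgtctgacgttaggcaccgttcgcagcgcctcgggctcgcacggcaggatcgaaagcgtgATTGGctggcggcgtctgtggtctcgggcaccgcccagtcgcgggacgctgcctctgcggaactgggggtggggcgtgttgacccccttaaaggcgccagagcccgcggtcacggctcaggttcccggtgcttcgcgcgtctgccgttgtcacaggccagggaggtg
INSIG1: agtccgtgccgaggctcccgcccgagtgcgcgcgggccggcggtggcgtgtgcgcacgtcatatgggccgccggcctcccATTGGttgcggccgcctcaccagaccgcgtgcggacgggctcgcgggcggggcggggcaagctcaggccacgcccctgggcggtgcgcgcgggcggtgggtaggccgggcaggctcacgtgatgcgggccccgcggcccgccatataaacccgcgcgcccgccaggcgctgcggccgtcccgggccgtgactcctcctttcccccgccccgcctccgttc
SCD: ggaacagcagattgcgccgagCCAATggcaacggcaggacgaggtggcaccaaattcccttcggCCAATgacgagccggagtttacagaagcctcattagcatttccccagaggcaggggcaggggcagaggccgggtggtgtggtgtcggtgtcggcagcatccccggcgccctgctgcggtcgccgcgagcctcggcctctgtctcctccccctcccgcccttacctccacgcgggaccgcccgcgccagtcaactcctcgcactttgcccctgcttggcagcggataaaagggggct
SREBF2: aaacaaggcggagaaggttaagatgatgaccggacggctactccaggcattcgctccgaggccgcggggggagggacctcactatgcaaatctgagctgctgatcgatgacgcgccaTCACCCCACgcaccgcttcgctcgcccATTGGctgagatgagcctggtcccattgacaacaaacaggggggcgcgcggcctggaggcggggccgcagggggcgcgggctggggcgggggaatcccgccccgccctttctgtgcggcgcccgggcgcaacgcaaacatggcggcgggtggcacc

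Motifs were counted on both strands over 56 such windows of 38 of the 41 genes, since a gene can have several starts. Windows of 1 gene can overlap, as for SC5D and ACLY, so the same site can be counted in more than 1 window. The NF-Y box CCAAT was in 18 of 27 sterol windows (66.7%) and 14 of 29 fatty acid windows (48.3%), against 34.6% of all 35116 promoter windows. The Sp1 box GGGCGG was in 25 sterol windows (92.6%) and 21 fatty acid windows (72.4%), against 45.0% of all windows. The HMGCS1 window printed above held 2 NF-Y boxes, whose leftmost bases lie at -155 and -100 from the start. SCD held 2 boxes, at -229 and -186, and INSIG1 1 box at -170 with an E-box (CACGTG) at -55. Another window of HMGCS1 and another of IDI1 held no NF-Y box. CYP51A1, which also moved in opposite directions, held an Sp1 box at -61 and no NF-Y box. FASN, FDFT1 and SQLE had no window. The element TCACNCCAC was in 1 sterol window (3.70%) and 2 fatty acid windows (6.90%), against 1.13% of all windows. It lay at -133 in SREBF2 and in windows of ACSL1 and MID1IP1. A match of letters is a description of the window and not a binding site, and different motifs may overlap.

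With Nexturastat A, most genes of both branches that changed were lower. In the sterol branch 10 of 23 genes fell, 3 rose and 10 were not called (edgeR quasi-likelihood test, Benjamini-Hochberg adjusted p under 0.05). In the fatty acid branch 11 of 18 fell, 1 rose and 6 were not called. Over all 16678 genes tested 36.6% were called, 15.5% lower and 21.1% higher. The median log2 fold change was -0.40 over the sterol genes and -0.62 over the fatty acid genes, against 0.03 over all genes. Both treated libraries lay below both Ctrl libraries for 15 sterol and 13 fatty acid genes, against 35.2% of all genes, and above them for 5 and 3, against 39% of all genes. Fewer cells of a kind and less RNA per cell cannot be told apart in these bulk libraries. The counts rest on both control libraries. With either Ctrl replicate left out, fewer genes of both branches were called, and fewer of all genes as well. Markers of cell identity moved as well: 5 lung lineage genes, mostly MUC5AC and NKX2-1, summed to 35.5 to 41.9 CPM with Nexturastat A and 210 to 304 CPM in Ctrl, with 3 called lower and 1 higher. The 6 mesenchymal markers summed to 3067 to 4186 CPM with Nexturastat A and 5694 to 5785 CPM in Ctrl. Of these markers 2 were called lower, 1 higher and 3 not called. TGFBI among them stood higher, at 232 to 383 CPM with Nexturastat A and 142 to 147 CPM in Ctrl. The 6 epithelial markers summed to 2210 to 2789 CPM with Nexturastat A and 1517 to 1567 CPM in Ctrl, with 2 called higher and 4 not called. The part of all these markers in the result was not tested.

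**Figure D1:**
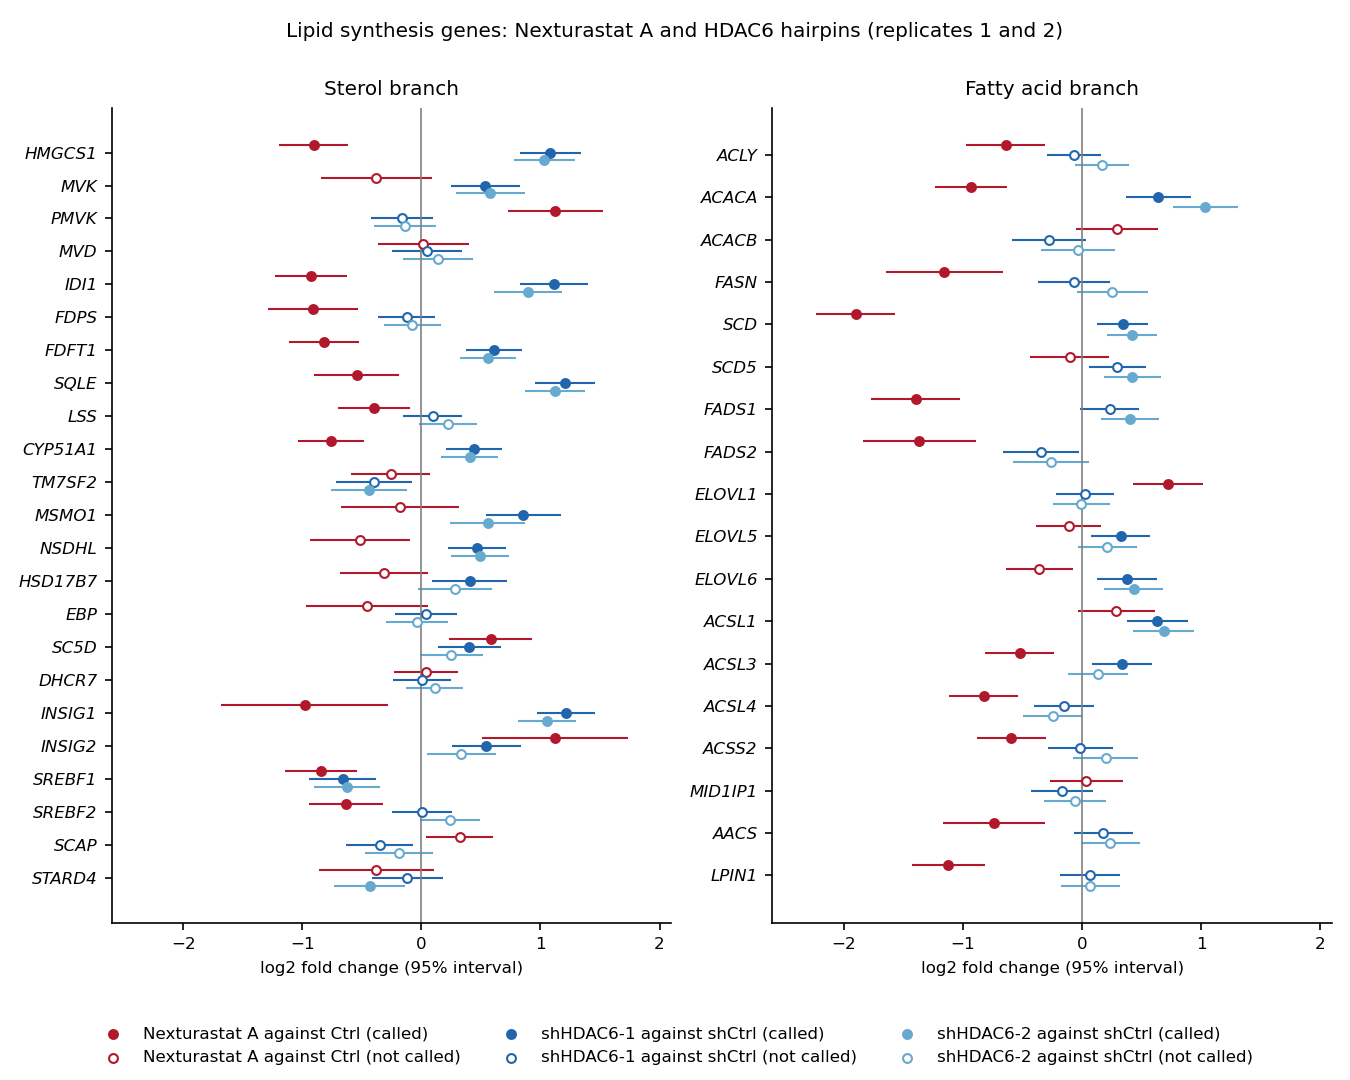
Log2 fold change with its 95% interval (x axis) for each sterol gene in pathway order (left) and each fatty acid gene (right), with Nexturastat A against Ctrl in red and shHDAC6-1 and shHDAC6-2 against shCtrl (replicates 1 and 2) in dark and light blue. Filled points were called at an adjusted p under 0.05; HMGCS1, IDI1, FDFT1, SQLE, CYP51A1, INSIG1, ACACA and SCD have red points left of 0 and both blue points right of it.

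Early steps of the mevalonate pathway showed both directions with the inhibitor. HMGCS1, the synthase that makes HMG-CoA, was at 45.2, 43.5 CPM with Nexturastat A and 84.6, 81.5 CPM in Ctrl. Its log2 fold change was -0.91 ± 0.12 (SE, adjusted p = 0.003). PMVK, the kinase that adds a phosphate to phosphomevalonate, went the other way, at 22.3, 19.9 CPM with Nexturastat A and 9.34, 9.97 CPM in Ctrl. Its log2 fold change was 1.13 ± 0.17 (SE, adjusted p = 0.00421). The groups did not overlap for either gene. MVK, the kinase before it, and MVD, the decarboxylase after it, were not called, with log2 fold changes of -0.38 and 0.02.

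The isoprene-joining enzymes were lower. IDI1, the isomerase of isopentenyl diphosphate, was at 46.1, 41.2 CPM with Nexturastat A and 82.8, 83.1 CPM in Ctrl. FDPS, which makes farnesyl diphosphate, was at 67.5, 89.97 CPM with Nexturastat A and 145, 151 CPM in Ctrl. FDFT1, squalene synthase, was at 152, 147 CPM with Nexturastat A and 279, 248 CPM in Ctrl. All 3 fell, with log2 fold changes of -0.93, -0.91 and -0.82, and no library of the treated group reached a control library. IDI1 and FDPS share 14.8% and 18.6% of their exon bases with the antisense genes IDI2-AS1 and RUSC1-AS1, and since the strandedness of counting is not stated, reads over those bases cannot be told apart.

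Enzymes of the squalene and lanosterol steps were also called lower. SQLE, squalene epoxidase, was at 21.9, 20.5 CPM with Nexturastat A and 32.9, 28.9 CPM in Ctrl (log2 fold change -0.54 ± 0.15, SE, adjusted p = 0.0294). LSS, which closes the rings of lanosterol, had a log2 fold change of -0.40 with an adjusted p of 0.0485, just under the threshold. CYP51A1, the lanosterol demethylase, was at 88.6, 93.5 CPM with Nexturastat A and 151, 157 CPM in Ctrl (log2 fold change -0.76 ± 0.12, SE, adjusted p = 0.00442). It shares 83.2% of its exon bases with other annotated genes, CYP51A1-AS1 among them. None of the 3 was called when either Ctrl library was left out, with adjusted p up to 0.282 for SQLE, 0.303 for LSS and 0.0597 for CYP51A1. LSS was also not called without Nexturastat A replicate 1 or with the replicate number as a block (adjusted p = 0.0588).

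Late sterol enzymes mostly missed the threshold with Nexturastat A. SC5D, the sterol desaturase near the end of the pathway, rose by a log2 fold change of 0.58 (adjusted p = 0.0219). TM7SF2, MSMO1, NSDHL, HSD17B7, EBP and DHCR7, which reduce, demethylate and isomerise the rings, were not called, with log2 fold changes from -0.52 for NSDHL to 0.04 for DHCR7. MSMO1 differed between the treated libraries, at 120 and 79.0 CPM, against 123 and 102 CPM in Ctrl, so the groups overlapped.

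Sterol sensing genes did not move as 1 group. INSIG1, which retains SREBPs in the endoplasmic reticulum, was at 58.9, 33.2 CPM with Nexturastat A and 102, 80.1 CPM in Ctrl (log2 fold change -0.98 ± 0.29, SE, adjusted p = 0.0417). INSIG2, its relative, was at 64.4, 36.7 CPM with Nexturastat A and 22.6, 23.8 CPM in Ctrl (log2 fold change 1.12 ± 0.26, SE, adjusted p = 0.0161). The groups did not overlap, but the treated libraries lay far apart for both genes. Without either Ctrl library neither was called, and the adjusted p reached 0.162 for INSIG1 and 0.104 for INSIG2. SREBF1 was at 79.5, 90.4 CPM with Nexturastat A and 157, 148 CPM in Ctrl. SREBF2 was at 169, 169 CPM with Nexturastat A and 283, 240 CPM in Ctrl. Both fell, with log2 fold changes of -0.84 and -0.63, while SCAP and the sterol carrier STARD4 were not called, at 0.32 and -0.38.

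The fatty acid branch held the largest falls with Nexturastat A. SCD, which puts the first unsaturated bond into stearoyl-CoA, was at 286, 266 CPM with Nexturastat A and 1094, 967 CPM in Ctrl. Its log2 fold change was -1.90 ± 0.14 (SE, adjusted p = 0.000486), and the call held when any 1 of the 4 libraries was left out. FADS1, the delta-5 desaturase, was at 84.9, 109 CPM with Nexturastat A and 271, 242 CPM in Ctrl. FADS2, the delta-6 desaturase beside it on chromosome 11, was at 90.2, 138 CPM with Nexturastat A and 294, 295 CPM in Ctrl. Their log2 fold changes were -1.40 ± 0.16 and -1.36 ± 0.20 (SE), with no overlap between groups, and the genes share 5.6% and 4.9% of their exon bases with each other and with MIR1908 or FEN1. SCD5, the second stearoyl desaturase, was not called, at -0.10.

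FASN and ACACA, which build the chain, were lower, and so was LPIN1. FASN, fatty acid synthase, was at 260, 386 CPM with Nexturastat A and 783, 657 CPM in Ctrl (log2 fold change -1.16 ± 0.21, SE, adjusted p = 0.00694). ACACA, the acetyl-CoA carboxylase that makes malonyl-CoA for synthesis, was at 79.3, 87.8 CPM with Nexturastat A and 167, 151 CPM in Ctrl (log2 fold change -0.93 ± 0.13, SE, adjusted p = 0.00321). ACACB, the carboxylase of mitochondria, was not called, at 0.29. LPIN1, a phosphatidate phosphatase of triglyceride synthesis, was at 94.3, 84.6 CPM with Nexturastat A and 206, 184 CPM in Ctrl (log2 fold change -1.12 ± 0.13, SE, adjusted p = 0.0019). The groups did not overlap for FASN, ACACA or LPIN1.

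Genes that supply and activate the acids were among those that fell. ACLY, which splits citrate, ACSS2, which activates acetate, and AACS, which activates acetoacetate, had log2 fold changes of -0.64, -0.60 and -0.74. ACSL3 and ACSL4, which join long acids to CoA, had -0.52 and -0.83, and all 5 were called. ACSL3 lost the call without either Ctrl library and with GC and length trends removed, and ACSL4 without Ctrl replicate 1. ELOVL1, which extends very long chains, was the 1 gene of the branch that rose, at 151, 169 CPM with Nexturastat A and 94.3, 99.9 CPM in Ctrl (log2 fold change 0.72). ELOVL5, ELOVL6, ACSL1 and MID1IP1, a partner of acetyl-CoA carboxylase, were not called, with log2 fold changes of -0.11, -0.36, 0.29 and 0.03.

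With the HDAC6 hairpins, in replicates 1 and 2, most genes that changed were higher. With shHDAC6-1, 12 of 23 sterol genes rose, 1 fell and 10 were not called, and 6 of 18 fatty acid genes rose with none called lower. Over all 17702 genes tested 30.5% were called, 15.3% higher and 15.2% lower. With shHDAC6-2, 9 sterol genes rose, 3 fell and 11 were not called, and again 6 fatty acid genes rose with none called lower. Here 27.6% of all genes were called, 14.4% higher and 13.2% lower. The median log2 fold change was 0.40 over sterol and 0.12 over fatty acid genes with shHDAC6-1, and 0.25 and 0.21 with shHDAC6-2, against -0.02 and 0.00 over all genes. Both shHDAC6-1 libraries lay above both shCtrl libraries for 12 sterol and 9 fatty acid genes, against 31.7% of all genes, and below them for 5 and 3, against 33.6%. With shHDAC6-2 they lay above for 12 and 10, against 30.7% of all genes, and below for 3 and 1, against 30.2%. The 3 embryonic-like markers moved with the result, at 883 to 1057 CPM with shHDAC6-1 and 1092 to 1155 CPM with shHDAC6-2, against 649 to 726 CPM with shCtrl, with 2 and 3 of 3 called higher. The 6 epithelial markers summed to 257 to 290 CPM with shHDAC6-1 and 264 to 288 CPM with shHDAC6-2, against 345 to 380 CPM with shCtrl. The 5 lung lineage genes summed to 13.2 to 13.5 CPM and 13.2 to 16.2 CPM with the hairpins, against 21.9 to 25.7 CPM with shCtrl. The 6 mesenchymal markers summed to 1086 to 1130 CPM with shHDAC6-1 and 1069 to 1098 CPM with shHDAC6-2. With shCtrl that sum was lower, at 1026 to 1046 CPM. In the epithelial, lung lineage and mesenchymal lists 2 genes each were called lower with each hairpin. The part of these markers in the result was not tested. Both hairpins are set against the same shCtrl libraries, so their values are given side by side and nothing is read from their likeness. Without shHDAC6-1 replicate 2, fewer sterol genes were called with that hairpin, and without its replicate 1 or its replicate 2, fewer fatty acid genes. Fewer of all genes were called in both of these fits as well.

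The rises followed base composition, which is given here for the longest transcript of each gene. Of the 20 genes under 50% GC, 16 rose and none fell with shHDAC6-1, and 12 rose and 1 fell with shHDAC6-2. Of the 21 genes at 50% GC or more, 2 rose and 1 fell with shHDAC6-1, and 3 rose and 2 fell with shHDAC6-2. All genes were not counted by GC class, so whether these counts differ from other genes of like GC is not known. Across the 41 genes the Spearman rank correlation of GC with log2 fold change was -0.621 and -0.427, against -0.379 and -0.269 across all genes. With Nexturastat A it was 0.044 across the 41 genes and 0.123 across all genes. With trends on GC and transcript length removed in every library, an alternative added after seeing the data, 14 of 16 called sterol genes rose with shHDAC6-1 and 15 of 17 with shHDAC6-2. Among fatty acid genes 8 of 9 called rose with shHDAC6-1 and 10 of 11 with shHDAC6-2. More of all genes were called in that fit too, 43.4% with shHDAC6-1 and 42.7% with shHDAC6-2, of which 50.9% and 53.1% were higher. HSD17B7, INSIG2, ELOVL5, ELOVL6 and ACSL3 lost their call with shHDAC6-1 in it, and TM7SF2 its call with shHDAC6-2.

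Genes that rose with both hairpins span the early and late sterol pathway. Values of the 6 that moved opposite to Nexturastat A are given further on. MVK, mevalonate kinase, was at 30.0, 34.0 CPM with shHDAC6-1 and 29.6, 36.4 CPM with shHDAC6-2, against 21.3, 22.8 CPM with shCtrl. MSMO1, which oxidises a methyl group of lanosterol products, was at 49.3, 54.2 CPM with shHDAC6-1 and 44.9, 39.2 CPM with shHDAC6-2, against 34.1, 23.1 CPM with shCtrl. Neither gene's hairpin libraries overlapped shCtrl. Their log2 fold changes were 0.54 and 0.58 for MVK and 0.86 and 0.56 for MSMO1. NSDHL, a dehydrogenase of the same demethylation, rose by 0.47 and 0.49 on the log2 scale.

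Other sterol genes were called with 1 hairpin or with neither. HSD17B7, SC5D and INSIG2 rose with shHDAC6-1, by 0.40, 0.40 and 0.54 on the log2 scale, and had 0.28, 0.25 and 0.33 with shHDAC6-2, which were not called. TM7SF2 and STARD4 were called lower with shHDAC6-2, at -0.44 and -0.43, and had -0.40 and -0.12 with shHDAC6-1. The difference between hairpins was not tested. PMVK, MVD, FDPS, LSS, EBP, DHCR7, SREBF2 and SCAP were called with neither, with log2 fold changes from -0.35 to 0.10 with shHDAC6-1 and from -0.19 to 0.24 with shHDAC6-2. SREBF1 fell with both, at 67.7, 70.6 CPM with shHDAC6-1 and 62.2, 79.5 CPM with shHDAC6-2, against 96.6, 122 CPM with shCtrl. Its log2 fold changes were -0.66 and -0.63, and it was the 1 gene of the 41 that fell with the inhibitor and with both hairpins.

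In the fatty acid branch 6 genes rose with each hairpin, ACACA and SCD among them. ACSL1, an acyl-CoA synthetase, was at 51.9, 50.6 CPM with shHDAC6-1 and 54.4, 52.0 CPM with shHDAC6-2, against 34.9, 31.2 CPM with shCtrl (log2 fold changes 0.63 and 0.69). ELOVL6, which extends palmitate, was at 55.6, 55.8 CPM with shHDAC6-1 and 61.4, 54.5 CPM with shHDAC6-2, against 42.3, 43.5 CPM with shCtrl (0.38 and 0.43). SCD5 was at 73.0, 78.2 CPM with shHDAC6-1 and 82.7, 82.1 CPM with shHDAC6-2, against 62.5, 60.5 CPM with shCtrl (0.30, not called, and 0.42). The hairpin libraries lay above shCtrl for all 3 genes. ELOVL5, at 169, 168 CPM with shHDAC6-1 and 147, 122 CPM with shCtrl, and ACSL3, at 136, 144 CPM with shHDAC6-1 and 121, 101 CPM with shCtrl, rose with that hairpin by 0.32 and 0.33 on the log2 scale. Neither was called without shHDAC6-1 replicate 1, shHDAC6-1 replicate 2 or shCtrl replicate 2. FADS1 rose with shHDAC6-2, at 65.4, 63.0 CPM against 46.5, 50.7 CPM with shCtrl (0.40). FASN, ACLY, FADS2, LPIN1, ACSL4, ACSS2, AACS, ACACB, ELOVL1 and MID1IP1 were called with neither hairpin.

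The inhibitor and the hairpins differed in direction for 8 genes, which were called lower with Nexturastat A and higher with both hairpins. They are HMGCS1, IDI1, FDFT1, SQLE, CYP51A1 and INSIG1 in the sterol branch and ACACA and SCD in the fatty acid branch. None of the 41 was called in the reverse way, higher with the inhibitor and lower with both hairpins. Over the 15756 genes tested in both experiments, 2.72% were called lower with the inhibitor and higher with both hairpins, 2.98% the reverse way, 1.56% lower in all 3 comparisons and 1.58% higher in all 3. The inhibitor and hairpin experiments share no libraries, so the difference was tested in 1 fit as the effect of Nexturastat A minus the mean effect of the hairpins. It was called lower for 13 of 23 sterol and 13 of 18 fatty acid genes and higher for 2 and 1, where 41.8% of all genes were called, 18% lower and 23.8% higher. All 8 genes were among those called lower, but they had been picked by their calls in the same libraries. That outcome was thus largely set by the choice. The adjusted p-values printed below for their differences are not separate support. The experiments differ in day, vehicle and, by the markers above, in their cells, and these cannot be told apart from inhibitor against hairpin.

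HMGCS1 lies on chromosome 5 from 43289395 to 43313512 on the minus strand (GENCODE release 29, GRCh38). With shHDAC6-1 it was at 175, 185 CPM and with shHDAC6-2 at 185, 162 CPM, against 93.2, 76.7 CPM with shCtrl. Its log2 fold changes were 1.08 and 1.03, against -0.91 with Nexturastat A, and the difference was -1.94 ± 0.17 (SE, adjusted p = 1.73e-06). IDI1, on chromosome 10 from 1039152 to 1049170, was at 103, 107 CPM with shHDAC6-1 and 96.4, 84.4 CPM with shHDAC6-2, against 56.5, 40.9 CPM with shCtrl. Its log2 fold changes were 1.11 and 0.89, and the difference was -1.91 ± 0.20 (SE, adjusted p = 7.67e-06). All hairpin libraries lay above both shCtrl libraries for these early enzymes.

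FDFT1 and SQLE, which make and oxidise squalene, followed. FDFT1 was at 214, 236 CPM with shHDAC6-1 and 213, 220 CPM with shHDAC6-2, against 150, 145 CPM with shCtrl (log2 fold changes 0.61 and 0.56). SQLE was at 118, 118 CPM with shHDAC6-1 and 118, 106 CPM with shHDAC6-2, against 55.4, 47.2 CPM with shCtrl (1.20 and 1.12). CYP51A1, on chromosome 7 from 92112151 to 92134803, was at 138, 139 CPM with shHDAC6-1 and 141, 129 CPM with shHDAC6-2, against 105, 98.5 CPM with shCtrl (0.44 and 0.40). The differences from Nexturastat A were -1.38, -1.69 and -1.16 on the log2 scale, with adjusted p of 1.17e-05, 6.35e-06 and 3.83e-05. No hairpin library overlapped shCtrl for any of the 3.

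INSIG1, on chromosome 7 from 155297776 to 155310235, rose most with shHDAC6-1 among the 41. It was at 160, 166 CPM with shHDAC6-1 and 148, 144 CPM with shHDAC6-2, against 75.4, 65.0 CPM with shCtrl. Its log2 fold changes were 1.21 and 1.06, and the difference from Nexturastat A was -2.10 ± 0.29 (SE, adjusted p = 0.000195). ACACA, on chromosome 17 from 37084988 to 37406818, was at 218, 177 CPM with shHDAC6-1 and 265, 255 CPM with shHDAC6-2, against 111, 142 CPM with shCtrl (0.64 and 1.04). SCD, on chromosome 10 from 100347124 to 100364834, was at 740, 695 CPM with shHDAC6-1 and 769, 747 CPM with shHDAC6-2, against 559, 575 CPM with shCtrl (0.34 and 0.42). The differences from Nexturastat A were -1.75 for ACACA and -2.26 for SCD, the largest of the 41, and no hairpin library overlapped shCtrl for either gene.

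The 8 genes lie between 40.2% and 48.7% GC. With GC and length trends removed all 8 kept the 3 calls, from 0.23 for CYP51A1 with shHDAC6-1 to 1.12 for SQLE with shHDAC6-1, and from -1.79 for SCD to -0.61 for SQLE with Nexturastat A. Of the 8, 4 kept them without Ctrl replicate 1 and 5 without Ctrl replicate 2. FDFT1, SQLE, CYP51A1 and INSIG1 lost a call in the first case and SQLE, CYP51A1 and INSIG1 in the second. SCD lost a call without shHDAC6-1 replicate 1, CYP51A1 and SCD without shHDAC6-1 replicate 2, and CYP51A1 without shHDAC6-2 replicate 1.

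**Figure D2:**
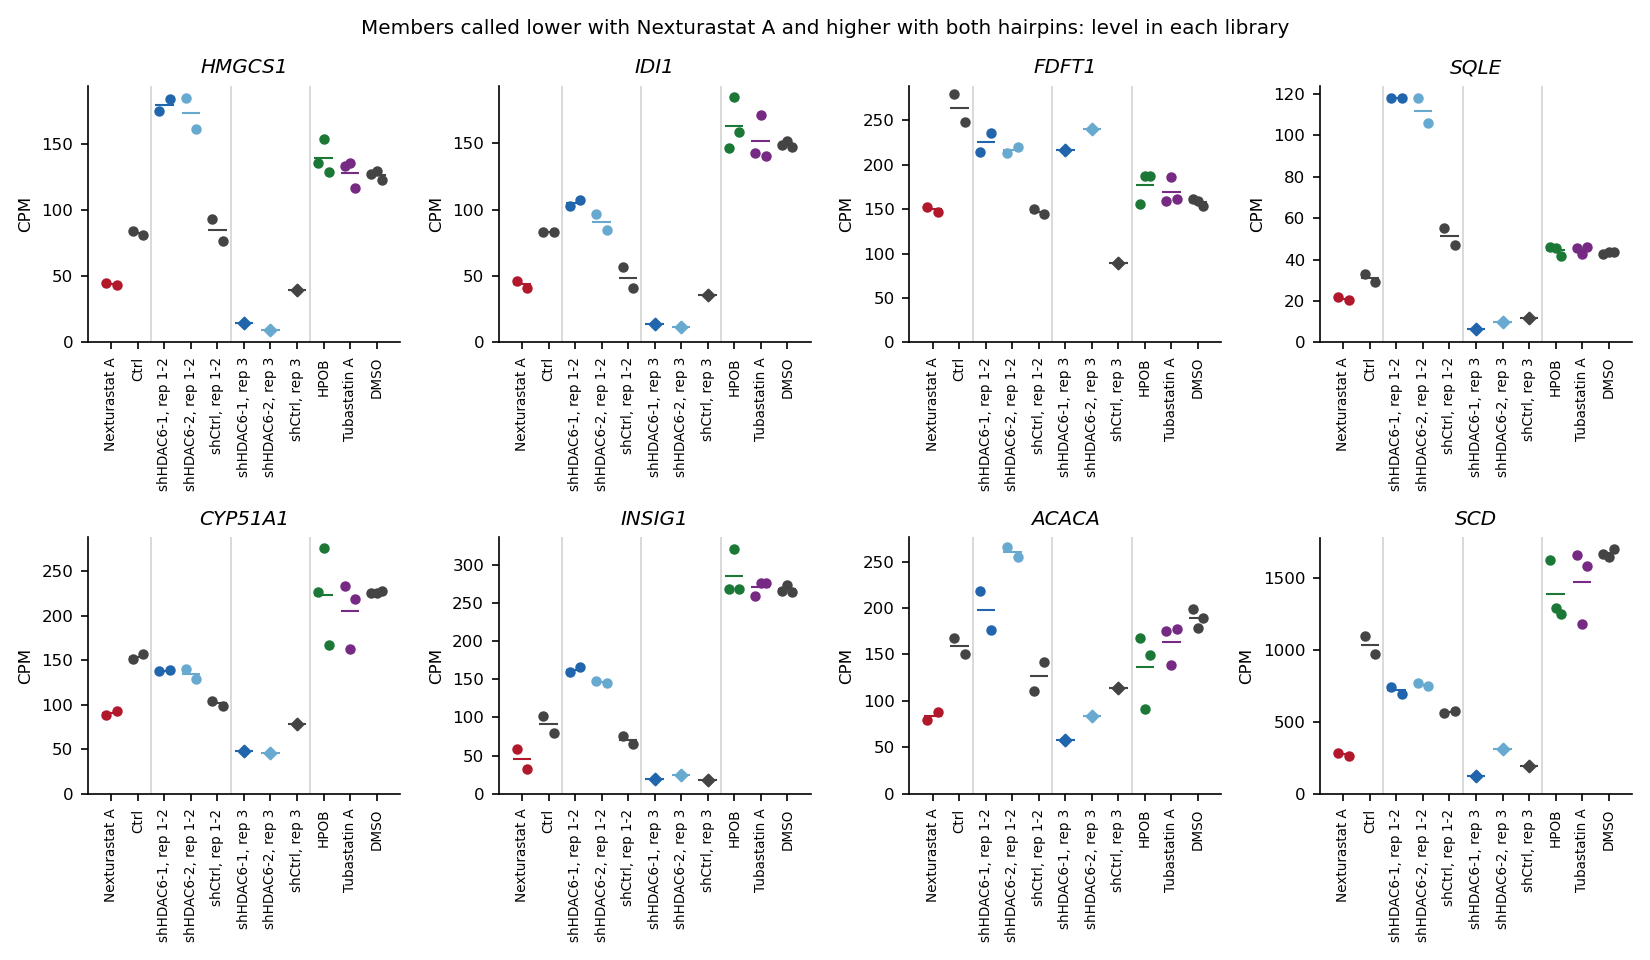
Level in CPM (y axis, linear, from 0) of the 8 genes called lower with Nexturastat A and higher with both hairpins, 1 point per library and a line at the group mean, with the hairpins of replicates 1 and 2 (circles) and replicate 3 (diamonds) apart. HMGCS1 is lower in the treated than in the Ctrl libraries, higher in hairpin than shCtrl libraries of replicates 1 and 2, and in replicate 3 lower in the hairpin libraries, at 15.1 and 9.76 CPM against 39.8 CPM. TMM scaling was done within each experiment, so heights are not comparable across the grey lines.

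Most other genes with a called difference between inhibitor and hairpins were called in 1 of the experiments. This does not show that the other experiment added nothing. FADS1 and ACSL3 were called in both, lower with Nexturastat A and higher with 1 hairpin, shHDAC6-2 for FADS1 and shHDAC6-1 for ACSL3. The FADS1 difference lay between -1.90 and -1.51 over its alternatives. The ACSL3 difference lost its call with GC and length trends removed. SCAP was called in neither experiment. Its difference was called higher, though not without Ctrl replicate 1, Ctrl replicate 2 or shCtrl replicate 2. MVK, MSMO1, NSDHL and ELOVL6 rose with both hairpins and were not called with Nexturastat A, and their differences of -0.92, -0.87, -0.98 and -0.75 on the log2 scale were called. NSDHL and ELOVL6 were nonetheless below both Ctrl libraries with Nexturastat A, at -0.52 and -0.36 on the log2 scale. The MSMO1 difference lost its call without Ctrl replicate 1, shCtrl replicate 2 or shHDAC6-2 replicate 1. HSD17B7 and SCD5, each called with 1 hairpin and not with Nexturastat A, also had differences called lower. Those calls were lost in 6 and 10 of 17 alternatives. FDPS, LSS, SREBF2, FASN, FADS2, ACLY, ACSL4, ACSS2, AACS and LPIN1 fell with Nexturastat A, were called with neither hairpin, and had called differences from -1.23 for FASN to -0.53 for LSS. The ACSL4 difference lost its call with GC and length trends removed, at -0.06 (edgeR adjusted p = 0.654), and the LSS difference without Ctrl replicate 1 and without shCtrl replicate 1 (adjusted p up to 0.0736 over its alternatives). PMVK and ELOVL1 rose with Nexturastat A and were called with neither hairpin, with called differences of 1.297 and 0.73. The difference for SREBF1 was -0.18 and was not called.

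Replicate 3 of the knockdown gave another picture, with 1 library per group and so no replicate check and no test. HDAC6 was at 9.73 CPM with shHDAC6-1 and 12.3 CPM with shHDAC6-2, against 22.3 CPM with shCtrl. In the sterol branch 12 of 23 genes were at least 1.5-fold higher and 8 at least 1.5-fold lower with shHDAC6-1, and 13 and 7 with shHDAC6-2. In the fatty acid branch 5 were higher and 6 lower with shHDAC6-1, and 6 and 4 with shHDAC6-2. Over all genes 39% were that much higher and 39.3% that much lower with shHDAC6-1, and 38.6% and 38.7% with shHDAC6-2. These shares compare libraries, not conditions.

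HMGCS1 in replicate 3 was at 15.1 CPM with shHDAC6-1 and 9.76 CPM with shHDAC6-2, against 39.8 CPM with shCtrl, ratios of 0.379 (95% counting interval 0.354 to 0.405) and 0.245 (0.224 to 0.269). IDI1 was at 13.7 and 11.8 CPM against 35.8 CPM, ratios of 0.382 and 0.331. Both were thus lower in replicate 3 and higher in replicates 1 and 2. ELOVL6 was at 4.69 and 6.07 CPM with the hairpins against 46.5 CPM with shCtrl, and ACSL4, which was not called in replicates 1 and 2, at 22.5 and 16.8 CPM against 138 CPM. TM7SF2, called lower with shHDAC6-2 in replicates 1 and 2, was at 122 and 64.8 CPM against 8.99 CPM, ratios of 13.5 and 7.21. FDFT1 was higher in replicate 3 too, at 217 and 240 CPM against 89.7 CPM, and INSIG1 was near its control, at 19.0 and 24.5 CPM against 18.7 CPM. Intervals cover counting error only.

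In replicate 3 the ratios followed GC content in the opposite sense. Of the 20 genes under 50% GC, 14 were at least 1.5-fold lower and 1 higher with shHDAC6-1, and 11 and 2 with shHDAC6-2. Of the 21 genes at 50% GC or more, 16 and 17 were higher and none lower. Here too the shares over all genes in each GC class were not counted. The rank correlation of GC with the log2 ratio was 0.847 and 0.861 across the 41 genes and 0.785 and 0.774 across all genes. The points of 1 comparison share their libraries and are not independent. With all 9 knockdown libraries in 1 fit, 0 of all 17653 genes were called with either hairpin, and so none of the 41.

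**Figure D3:**
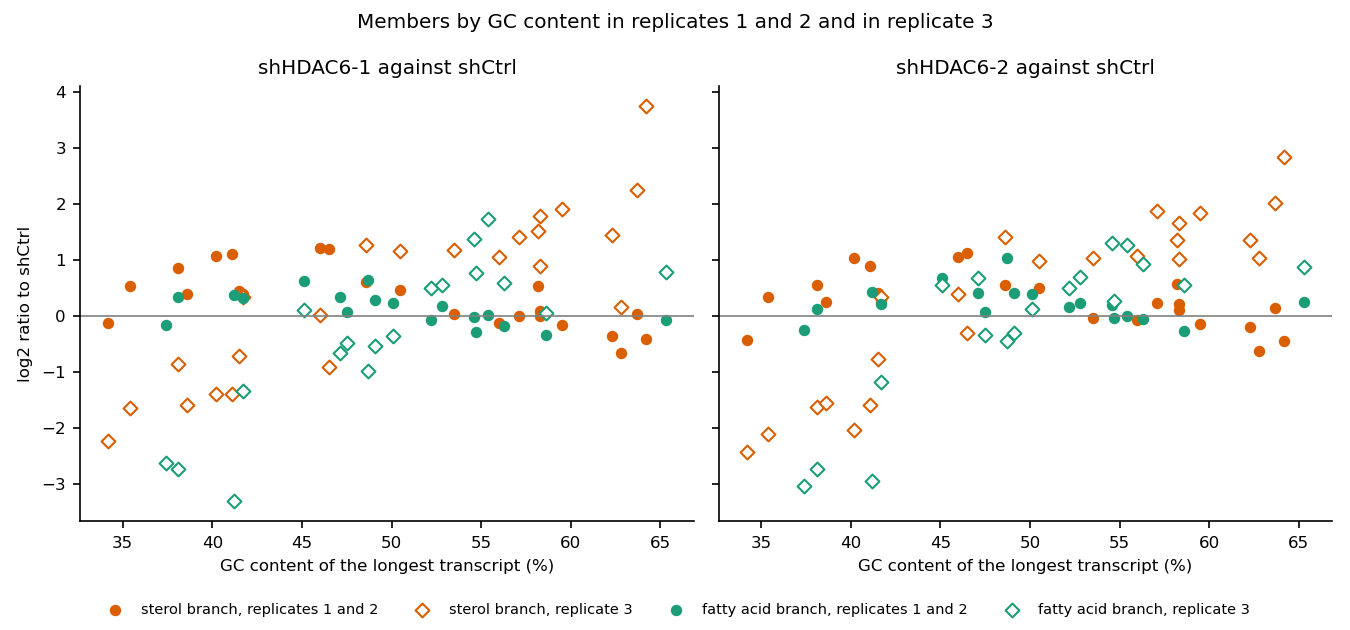
Log2 ratio of hairpin to shCtrl (y axis) against the GC content of the longest transcript in percent (x axis) for the 41 genes, with shHDAC6-1 left and shHDAC6-2 right, replicates 1 and 2 as filled circles and replicate 3 as open diamonds, sterol genes in orange and fatty acid genes in green. The circles slope down (rank correlation -0.621 and -0.427) and the diamonds slope up (0.847 and 0.861).

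HPOB and Tubastatin A left both branches without a called gene. None of the 41 was called with either, where 4 of 15338 genes (0.0261%) were called with HPOB and 0 of 15338 (0%) with Tubastatin A. At an unadjusted p under 0.05 there were 5 of the 41 with HPOB and 2 with Tubastatin A, and over all genes 1588 and 757. DESeq2 also called none of the 41. Both compounds are set against the same DMSO libraries. Their doses are not known here, and marker levels differed between DMSO and Ctrl. No comparison is therefore drawn between the compounds or with Nexturastat A.

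With HPOB the median log2 fold change was 0.14 over sterol and -0.07 over fatty acid genes, and with Tubastatin A 0.04 and -0.07, against 0.01 and 0.01 over all genes. The 95% intervals of single genes reached from -0.86 to 0.68 with HPOB and from -0.60 to 0.52 with Tubastatin A. All 3 HPOB libraries lay above all DMSO libraries for 5 sterol and 1 fatty acid genes, against 11.2% of all genes, and below them for 0 and 3, against 10.4%. With Tubastatin A they lay above for 2 and 1, against 9.15% of all genes, and below for 0 and 3, against 7.55%. MVD was at 58.9, 60.3, 69.4 CPM with HPOB and 58.6, 66.6, 63.3 CPM with Tubastatin A, against 48.3, 51.3, 53.3 CPM with DMSO. Both compounds' libraries lay above all DMSO libraries for MVD, with log2 fold changes of 0.30 and 0.30 and adjusted p of 0.4 and 0.857. ACACA was at 168, 91.4, 149 CPM with HPOB and 176, 139, 177 CPM with Tubastatin A, against 199, 179, 189 CPM with DMSO (log2 fold changes -0.48 and -0.21). SCD was at 1622, 1289, 1245 CPM with HPOB and 1653, 1180, 1577 CPM with Tubastatin A, against 1662, 1643, 1698 CPM with DMSO (-0.27 and -0.18). For ACACA every DMSO library lay above every library of either compound. For SCD the same held with HPOB but not with Tubastatin A, and the treated libraries were spread more widely than DMSO. HPOB replicate 3 and Tubastatin A replicate 2 deviated together from their groups, with the highest correlation of residuals across genes among pairs from different groups, at 0.275. HDAC6 stood at 126 and 122 CPM in them, against 85.9 to 98.3 CPM with DMSO. HPOB replicate 2 lay apart the other way, with HDAC6 at 66.9 CPM. It also held the 91.4 CPM of ACACA, and FASN at 820 CPM, against 1226 to 1291 CPM with DMSO. An alternative without HPOB replicate 3 and Tubastatin A replicate 2 was added after seeing the data. In it none of the 41 was called with either compound, and 20 of all genes with HPOB. HMGCS1, INSIG1 and SQLE had 0.14, 0.09 and 0.04 with HPOB and 0.02, 0.01 and 0.04 with Tubastatin A.

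**Figure D4:**
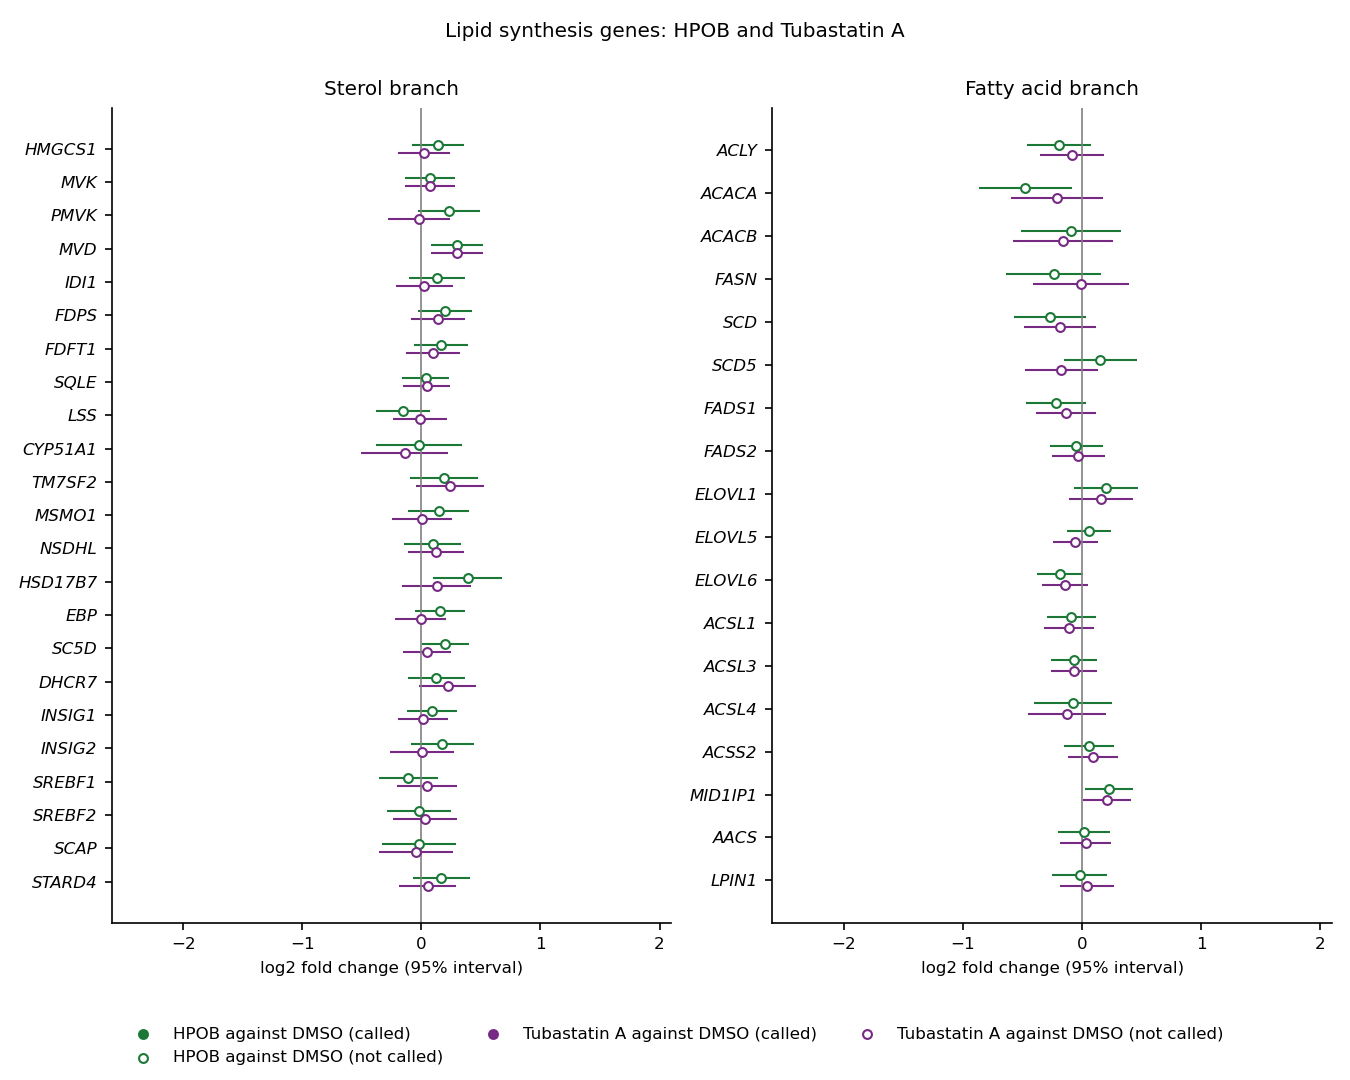
Log2 fold change with its 95% interval (x axis) for each sterol gene (left) and fatty acid gene (right) with HPOB (green) and Tubastatin A (purple) against DMSO, n = 3 each. All points are open because none was called; MVD lies at 0.30 with both compounds and ACACA at -0.48 with HPOB.

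Counts over 8 lists of neighbouring genes stand beside 36.6% of all genes called with Nexturastat A, 30.5% with shHDAC6-1 and 27.6% with shHDAC6-2, and several lie near those shares. Genes that cut and regulate the SREBPs were read from a list of 7. With Nexturastat A 3 fell and none rose, among them MBTPS1 and MBTPS2, the site-1 and site-2 proteases, at -0.56 and -0.51 on the log2 scale. With each hairpin 3 rose and none fell, among them MBTPS1 by 0.54 and 0.63 and MBTPS2 by 0.59 and 0.54 on the log2 scale. Of 8 genes of sterol efflux and its liver X receptor control, 1 rose and 2 fell with Nexturastat A, and 2 rose and 1 fell with each hairpin. ABCA1, which exports cholesterol, fell by 0.66 on the log2 scale with Nexturastat A and rose by 1.12 and 1.45 with the hairpins. The receptor genes NR1H2 and NR1H3 had 0.85 and -0.93 with shHDAC6-1 and 0.90 and -0.97 with shHDAC6-2.

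Of 10 genes of sterol storage and carriage, 2 rose and 4 fell with Nexturastat A, 5 rose and 1 fell with shHDAC6-1, and 4 rose and 1 fell with shHDAC6-2. This list includes ACAT2, the cytosolic thiolase at the head of the synthesis pathway, so its counts are not of storage and carriage alone. ACAT2 had -1.58 with Nexturastat A and 0.39 and 0.38 with the hairpins, all called. LIPA, the lysosomal lipase that frees cholesterol, rose in all 3, by 1.09, 0.59 and 0.41. SOAT1, which esterifies cholesterol, fell with the hairpins, by 0.52 and 0.72 on the log2 scale. Of 14 genes of the isoprenoid side branch, 1 fell and none rose with Nexturastat A, while 7 rose and 1 fell with shHDAC6-1 and 6 rose and 1 fell with shHDAC6-2. PGGT1B, a subunit of a protein prenyltransferase, was the 1 that fell, at -0.56, and had 1.21 and 1.11 with the hairpins.

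Lists around the fatty acid branch were mixed. Of 6 genes of precursor and NADPH supply, 2 rose and 3 fell with Nexturastat A, with the citrate carrier SLC25A1 at -0.83 on the log2 scale. With shHDAC6-1 2 rose and 1 fell and with shHDAC6-2 2 rose, IDH1, the cytosolic isocitrate dehydrogenase, by 1.75 and 1.62. Of 13 other elongation and desaturation genes, 2 rose and 3 fell of the 11 tested with Nexturastat A, and 2 rose and 2 fell of the 12 tested with each hairpin. FADS3, the neighbour of FADS1 and FADS2, rose by 1.44 with Nexturastat A, where they fell, and had -0.44 and -0.47 with the hairpins. HSD17B12, an elongation reductase, had -0.64 with Nexturastat A and 0.60 and 0.47 with the hairpins.

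Of 14 glycerolipid genes, 2 rose and 4 fell with Nexturastat A, with DGAT2, the last acyltransferase of triglyceride synthesis, at 1.81 and LPIN2 at -1.31. With shHDAC6-1 2 rose and 4 fell, and with shHDAC6-2 1 rose and 4 fell, among them AGPAT1, an acyltransferase of phosphatidate synthesis, at -1.02 and -1.03. Of 15 genes of fatty acid oxidation, the opposing pathway, 3 rose and 3 fell with Nexturastat A, 8 rose and 1 fell with shHDAC6-1, and 5 rose and 1 fell with shHDAC6-2. CPT1A, which admits acids to mitochondria, rose in all 3, by 0.76, 0.69 and 0.94. No gene of these 8 lists was called with HPOB or Tubastatin A. ABCA1, MBTPS1, MBTPS2, ACAT2, OSBP, PGGT1B, HSD17B12 and AGPAT3 were called lower with Nexturastat A and higher with both hairpins, and FADS3 the reverse way; these were picked out after their values were seen.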

How the data were processed

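The deposited values are raw read counts per gene symbol, made by the authors with 1 table per library. Per the submitters' processing notes, Trim Galore 0.6.7, STAR 2.7.9a, featureCounts 2.0.3 and DESeq2 1.30.1 were used with GRCh38. Neither the annotation nor the strandedness is given in the sources used here. No 2 libraries held identical values.

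Counts were fitted in R 4.3.3 with edgeR 4.0.16 (TMM, filterByExpr with minimum count 10 and minimum total 15, robust quasi-likelihood test). Adjusted p-values are Benjamini-Hochberg over all 15338 to 18742 genes tested, and genes under 0.05 are described as called. Fits were Nexturastat A with Ctrl (4 libraries), knockdown replicates 1 and 2 (6), the compounds with DMSO (9), and the inhibitor with the knockdown for the difference (10). Replicate 3 was described at a fold of 1.5 with exact 95% counting intervals. The code was tested on simulated counts. GENCODE release 29 gave positions and GC content, matched for 23899 symbols.

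The members, lists and tests were chosen with earlier results of these data known. Library values are printed for members called in opposite directions and for the 6 members of each branch with the largest called changes in a comparison. Beyond that rule, MSMO1 with Nexturastat A, MVD with the compounds, and ACSL4 and TM7SF2 in replicate 3 were picked after their values were seen. Of the other lists, genes with the largest called changes are named, and some are not reported here. With 2 libraries against 2, an exact permutation test of single values cannot give a p under 0.333, so none was run. Alternatives were DESeq2 1.42.0, other filters, a replicate block, other sets of libraries and removal of GC and length trends (splines with 3 degrees of freedom). Positions from GENCODE and promoters from RefSeq are both on GRCh38.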

Additional observations from a re-analysis of the deposited data

Results flagged for a closer look

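In the knockdown, 8 genes had a log2 ratio of hairpin to shCtrl in replicate 3 opposite in sign to their called change in replicates 1 and 2, with both hairpins. The difference between the replicates was not tested, since replicate 3 is 1 library per group. Called higher in replicates 1 and 2, HMGCS1 had ratios of -1.40 with shHDAC6-1 and -2.03 with shHDAC6-2 in replicate 3, and IDI1 had -1.39 and -1.59. SQLE had -0.92 and -0.30, CYP51A1 -0.71 and -0.76, and MSMO1 -0.86 and -1.61. In the fatty acid branch ACACA had -0.98 and -0.45, and ELOVL6 -3.31 and -2.94. SREBF1, called lower in replicates 1 and 2, had 0.17 and 1.04. The 7 genes that were lower in replicate 3 have transcripts of 38.1% to 48.7% GC and SREBF1 of 62.8% GC. CDKN2A and the embryonic-like markers also differ between those replicates, and the part of either in the sign was not tested.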

How the results depend on the processing

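Of 1323 values of single genes under other settings, 1173 kept direction and side of the threshold, 144 kept direction but were no longer called, and 6 reversed. All 6 reversals came with all 9 knockdown libraries in 1 fit: with shHDAC6-1 ELOVL5 was -0.14, ELOVL6 -0.32 and ACSL3 -0.40, and with shHDAC6-2 TM7SF2 was 1.07, SREBF1 0.18 and ELOVL6 -0.26 on the log2 scale. That fit called 0 sterol and 0 fatty acid genes with either hairpin, and 0 of 17653 genes in all. The cause was not tested. Leaving out 1 library at a time gave 3 to 16 sterol and 5 to 14 fatty acid genes called with Nexturastat A, 7 to 15 and 2 to 9 with shHDAC6-1, and 10 to 15 and 5 to 8 with shHDAC6-2. The share of all genes called moved as well over these settings, from 10.2% to 51.9% with Nexturastat A, from 17.2% to 32.9% with shHDAC6-1 and from 19% to 26.9% with shHDAC6-2. It gave 11 to 17 and 13 to 15 for the difference between inhibitor and hairpins, and 0 to 0 with HPOB and Tubastatin A. Without Ctrl replicate 1 or 2, 1781 or 1921 genes were called with Nexturastat A in place of 6112, and 76.3% or 71.8% of them were higher in place of 57.6%. For HPOB, 4 genes were called by edgeR, 120 by DESeq2 and 78 without Tubastatin A replicate 2, and for Tubastatin A 0 by edgeR and 23 by DESeq2. With GC and length trends removed, added after seeing the data, 11 fatty acid genes were called with shHDAC6-2, and 11 with the replicate block as well. A minimum mean CPM of 5 moved the log2 values of all genes by a median of 0.115 with Nexturastat A and 0.173 for the difference. Of the 8 genes called in opposite directions, SQLE and INSIG1 did not hold all 3 calls with that minimum, nor INSIG1 with no filter. With the minimum, calls were also lost for LSS with Nexturastat A and for HSD17B7, ACSL3 and ELOVL5 with shHDAC6-1, and the differences of LSS, MSMO1, HSD17B7 and SCD5 between inhibitor and hairpins were no longer called.

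Same-numbered libraries did not all correlate above 0.1, so the numbers were not taken as pairs. Residual correlations of same-numbered libraries were 0.105 with Nexturastat A, -0.046 to 0.161 in the knockdown and -0.155 to 0.198 with the compounds. Those of differently numbered libraries were -0.105, -0.161 to 0.046 and -0.302 to 0.275. With 2 libraries per group the residuals mirror each other. In the Nexturastat A and knockdown fits the second values are therefore the first with the sign turned, and add nothing on pairing. With the replicate block, 13 sterol and 12 fatty acid genes were called with Nexturastat A, 15 and 7 with shHDAC6-1, 12 and 6 with shHDAC6-2, 15 and 14 for the difference, and 0 with HPOB and Tubastatin A. The share of all genes called under the block was higher too, at 39.1% with Nexturastat A, 34.8% with shHDAC6-1, 32.1% with shHDAC6-2 and 45% for the difference, against 36.6%, 30.5%, 27.6% and 41.8% without it.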
